A study of Homo sapiens with 11 samples.

Results

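Extracellular proteases and the plasminogen system were followed in MDA-MB-231 cells, an established triple-negative human breast cancer line known for its invasiveness. The genes were MMP1, MMP3, MMP9, MMP14, PLAU, PLAT, PLAUR, TIMP1 and TIMP3, chosen by symbol. They were read by 18 of the 54675 probe sets of Affymetrix HG-U133 Plus 2.0 arrays, each annotated to exactly 1 of these symbols, and made up 9 of 19775 measured genes. MMP14 and TIMP3 had 4 probe sets each, PLAUR had 3, PLAU had 2, and MMP1, MMP3, MMP9, PLAT and TIMP1 had 1 each. Probe sets of a gene share its transcripts and are no replicates.

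Before treatment, all cultures were kept for 4 h on charcoal-stripped serum, and the agents then acted for 3 h. The 11 arrays covered 9 groups: untreated control (2 arrays), 0.1% ethanol (the vehicle of estradiol), 1 µM estradiol, 1 µM E2-BSA (a conjugate of estradiol with bovine serum albumin, 2 arrays), 10 µM ICI, 10 µM G15, 1 µM E2-BSA with 10 µM ICI, 1 µM E2-BSA with 10 µM G15, and 1 µM BSA, the carrier protein. G15 blocks GPER, a membrane receptor for estrogens, and ICI is an antagonist that the labels give only by this abbreviation. The values were log2 values centred per probe set, so they show differences between arrays and no level, neither for the genes nor for markers of the cell line. Nothing in the labels said whether the duplicates were separate cultures, so the p-values below cover the array-to-array spread, which may be technical. In such bulk RNA, fewer expressing cells and less RNA per cell cannot be told apart.

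The poly-A spike-ins, foreign transcripts mixed into each RNA sample, parted the arrays. Their mean over 24 probe sets lay between 1.40 and 1.62 in the first control, the first E2-BSA and the estradiol array, here called the high spike-in set, and between -0.56 and 0.10 in the other 8. The labels name no batch. Treatments were therefore compared within each set or in an additive limma fit to all 11 arrays with a term for the set, which left 3 residual degrees of freedom. In that fit the estradiol, BSA and ethanol arrays each had a term of their own and did not inform the set term. The set difference thus came from the first control and first E2-BSA arrays against the second of each. The number of arrays limits the precision. Marker genes of leukocytes (4 measured), fibroblasts (6) and endothelium (4) had mean centred values between -0.22 and 0.38 over the 11 arrays. For 10 genes listed as breast cancer line markers the range was -0.06 to 0.14. That list holds ESR1, PGR and ERBB2, which mark no triple-negative line, so it is a mixed reference. In the high set the fitted values were higher for 4 of 4 leukocyte genes (median 0.28, 1 passing) and 4 of 4 endothelial genes (median 0.32, 1 passing). They were higher for 5 of 6 fibroblast genes (median 0.13, 1 passing) and 7 of those 10 listed genes (median 0.05, 2 passing higher and 1 lower). Over all genes 60.3% were higher and 24.1% passed, with a median of 0.07, and the passing counts of the markers were near that share. The part of the marker genes in the set comparison was not tested.

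The encoded proteins act in a cascade outside the cell. Urokinase (PLAU), held at the cell surface by its receptor (PLAUR), and tissue plasminogen activator (PLAT) cut plasminogen to plasmin, which degrades fibrin and activates secreted metalloproteinase precursors. MMP1 is an interstitial collagenase, MMP3 (stromelysin) cuts many matrix proteins and other MMP precursors, MMP9 is a gelatinase, and MMP14 is a membrane-bound protease that activates other MMPs. TIMP1 and TIMP3 are inhibitors of metalloproteinases, TIMP1 a soluble and TIMP3 a matrix-bound one. In invasive breast cancer cells the collagenase, gelatinase and urokinase genes are known targets of AP-1 and NF-kB signalling.

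More of these genes passed between the spike-in sets than in any treatment comparison. In the high set MMP1 was lower, while MMP14, both plasminogen activators, the urokinase receptor and both inhibitors were higher. Of the 9 genes, 7 passed limma's test of the set term over all genes (adjusted p under 0.05), 6 of them higher and 1 lower. That term sets the first control and first E2-BSA arrays against the second ones, and the estradiol array does not enter it. Over all genes 24.1% passed, 14.1% higher and 10% lower. An unadjusted p under 0.05 was found for 8 of the 9 and for 37.1% of all genes. The median difference was 0.78 for the 9 genes and 0.07 for all genes, on the log2 scale. The median absolute difference was 0.99 against 0.22.

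The collagenase gene MMP1 was the gene that fell. It stood at -1.03 in the first control, -0.99 in the estradiol and -0.73 in the first E2-BSA array. In the other 8 arrays its lowest value was -0.0034, its median 0.12 and its highest 0.39. The 3 arrays of the high set thus lay below all others. The fitted difference, from the control and E2-BSA arrays, was -1.14 ± 0.15 (SE, limma adjusted p = 0.0019). Without the second control array the difference was -0.93 and missed the threshold (limma adjusted p = 0.0507).

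MMP3, which lies on chromosome 11 as MMP1 does, leaned the same way but did not pass. Its values were -0.22, -0.46 and -0.37 in the first control, estradiol and first E2-BSA arrays and ran from -0.23 through a median of 0.13 to 0.40 in the others. The sets overlapped slightly, and the fitted difference was -0.41 ± 0.16 (limma adjusted p = 0.109), passing only with the second control array left out (-0.70, limma adjusted p = 0.0448). MMP9 had values of -0.14, -0.32 and 0.08 against a range from -0.11 through 0.10 to 0.64. The sets overlapped widely for this gelatinase gene. Their plain means were -0.13 and 0.16, a difference of -0.29, while the fit with terms for the agents gave a difference of 0.03 ± 0.11 (limma adjusted p = 0.866) whose sign changed with quantile normalization (-0.012) and without the first E2-BSA array (-0.041).

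The membrane-bound protease MMP14 went the other way. It stood at 0.39, 0.46 and 0.62 in the first control, estradiol and first E2-BSA arrays. In the other 8 it ran from -0.41 through -0.20 to -0.06. All 3 values thus lay above all 8, with a difference of 0.78 ± 0.12 (limma adjusted p = 0.0035, and 0.0588 without the second control array). Each of its 4 probe sets was fitted higher in the high set, and 3 of them passed on their own.

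**Figure D1:**
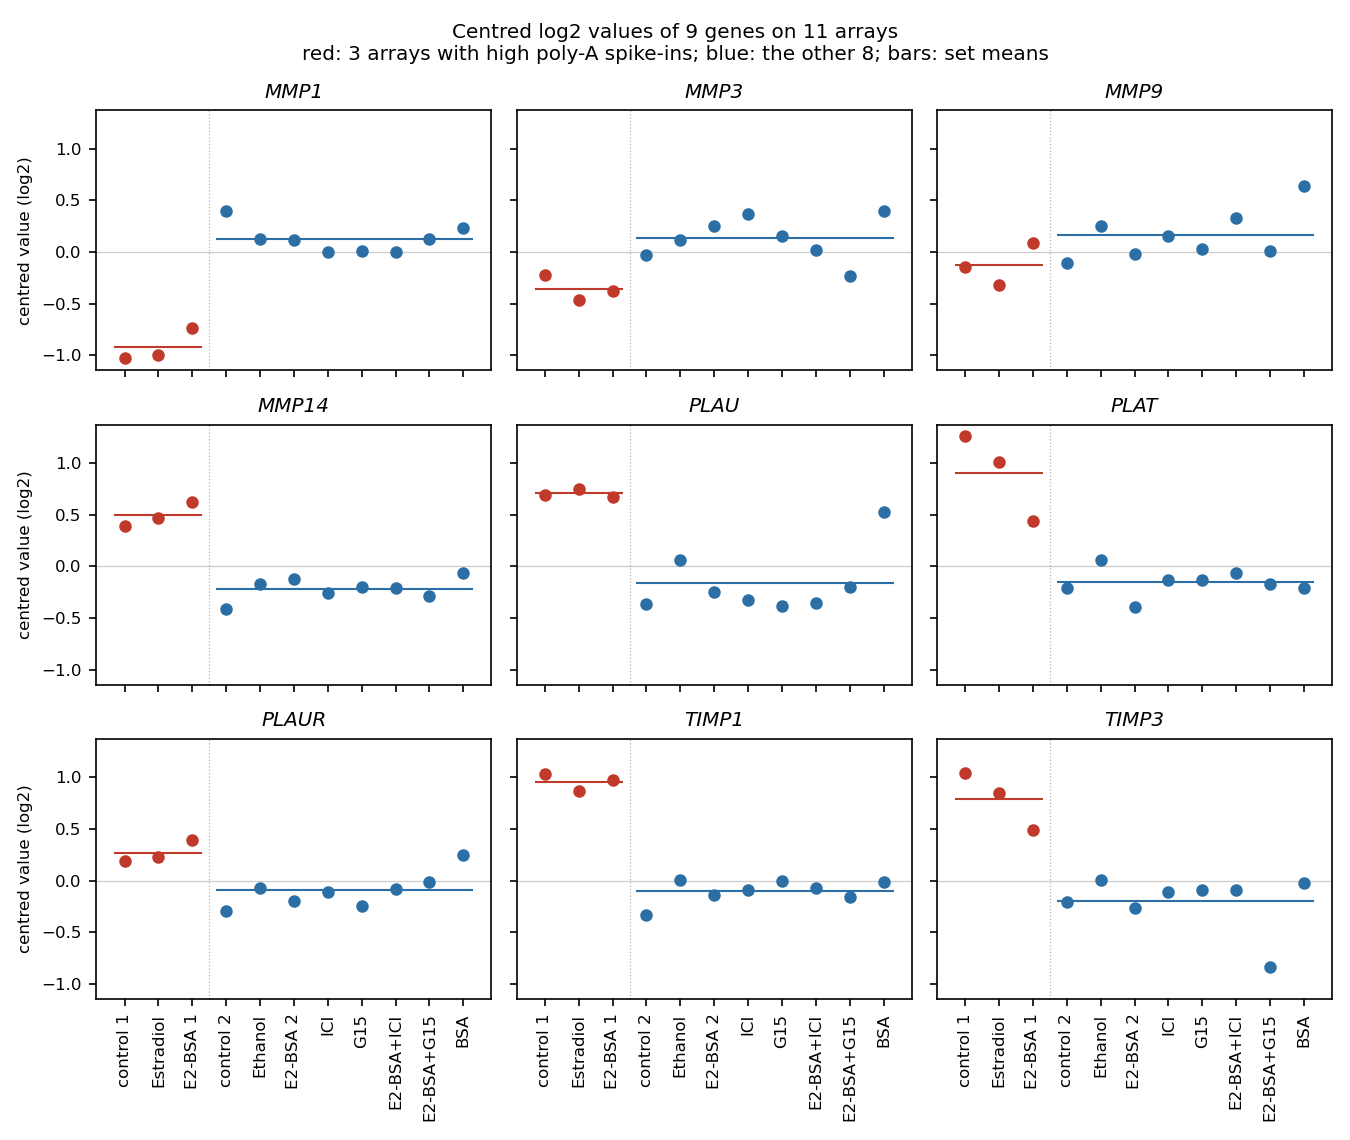
Centred log2 values (y axis) of the 9 genes on each of the 11 arrays (x axis), averaged over a gene's probe sets. Red points are the 3 arrays with high poly-A spike-ins, blue points the other 8, and bars the mean of each set. MMP1 is low in the red arrays (-1.03 to -0.73), TIMP1 is high in them (0.86 to 1.03), PLAU is high in the BSA array (0.53) and TIMP3 low in the E2-BSA+G15 array (-0.83).

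Both plasminogen activators were higher in the high set. PLAU stood at 0.69 in the first control, 0.75 in the estradiol and 0.67 in the first E2-BSA array. Elsewhere it ran from -0.38 through -0.29 to 0.53, where the highest value was that of the BSA array. The difference was 0.99 ± 0.11 (limma adjusted p = 0.00099), and it passed in each of the alternatives fitted at the level of genes. PLAT, in the same order of arrays, stood at 1.26, 1.01 and 0.44 against a range from -0.39 through -0.15 to 0.07. The first E2-BSA array was thus the lowest of the 3 but above all 8 others. Its difference was 1.15 ± 0.20 (limma adjusted p = 0.0059), and the call was lost without the second control (adjusted p = 0.0694) or the second E2-BSA array (adjusted p = 0.0648).

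For the urokinase receptor gene PLAUR the values were 0.19, 0.23 and 0.39 against a range from -0.30 through -0.09 to 0.25. The BSA array alone, of the other 8, reached into the high set. The difference was 0.53 ± 0.11 (limma adjusted p = 0.0091), and 0.0764 and 0.107 were the adjusted p without the second control and the second E2-BSA array. It rested on 210845_s_at (0.67 ± 0.12) and 211924_s_at (0.75 ± 0.12). The other probe set of PLAUR, 214866_at, was at 0.18 with limma adjusted p = 0.502 when probe sets ending in _s_at were left out.

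The inhibitor TIMP1 was also higher in the high set. Its single probe set stood at 1.03, 0.86 and 0.97 in the first control, estradiol and first E2-BSA arrays and from -0.33 through -0.08 to 0.0024 in the others. The sets were far apart (1.24 ± 0.13, limma adjusted p = 8.2e-04), and the gene passed in each alternative. TIMP3 stood at 1.04, 0.85 and 0.49 against a range from -0.83 through -0.10 to 0.0064. The gap was again complete. The fitted difference was 1.0 ± 0.19 (limma adjusted p = 0.0080). It missed the threshold without the first (adjusted p = 0.0510) or the second control array (adjusted p = 0.101).

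The TIMP3 probe sets disagreed in size. Averaged without 201149_s_at, in a fit added after the data were seen, the gene differed between the sets by 1.28 ± 0.16 (limma adjusted p = 0.0013). The probe set 201147_s_at differed by 2.17 ± 0.22 and 201150_s_at by 1.12 ± 0.15, both passing (limma adjusted p = 0.0012 and 0.0027), while 201148_s_at and 201149_s_at did not pass. Over all 18 probe sets of the 9 genes, 12 passed, where 21.6% of all probe sets did. Complete separation of the sets in gene averages held for 6 of the 9 genes, 5 above and 1 below, against 29.8% of all genes (13.5% above, 16.3% below).

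**Figure D2:**
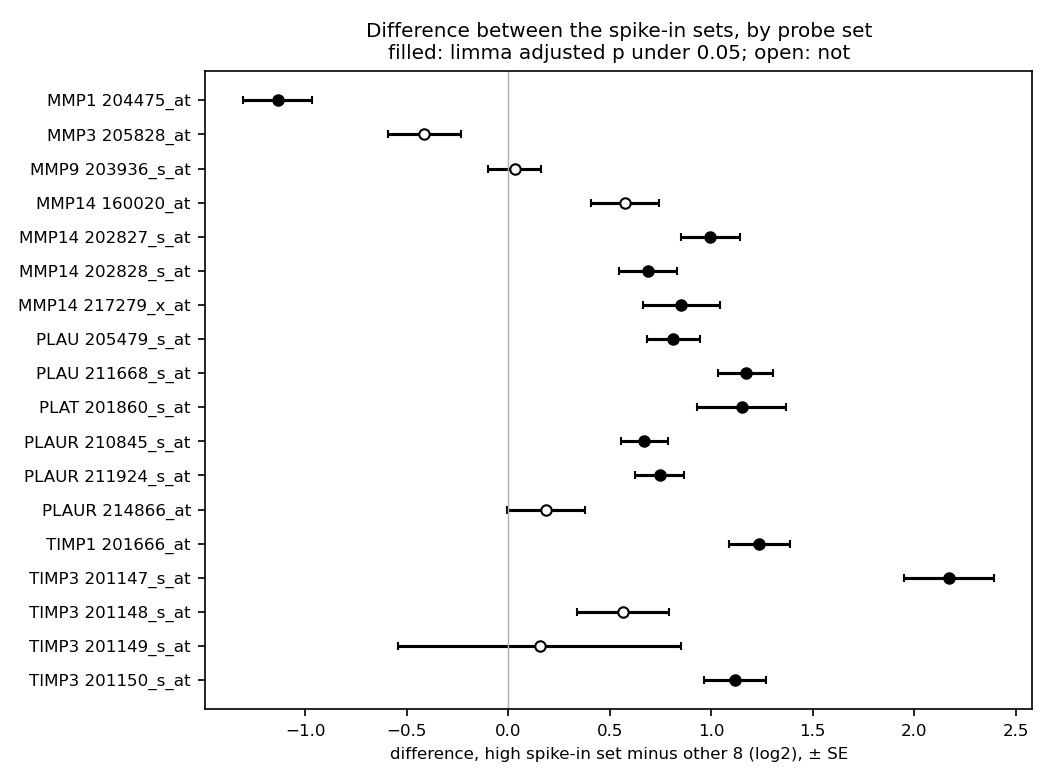
Fitted difference between the high spike-in set and the other 8 arrays (x axis, log2, with SE) for each of the 18 probe sets (y axis). It comes from the first control and first E2-BSA arrays against the second ones. Filled points passed limma's test over all probe sets and open points did not. MMP1 lies at -1.14, the probe sets of TIMP3 spread up to 2.17, and 214866_at of PLAUR stands apart from the other 2 probe sets of that gene.

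Upstream sequences are shown for 4 of the genes that were higher together in the high set, to show the letters before their starts. RefSeq promoter windows (GRCh38.p14) were found for 5 of the 9 genes: MMP14, PLAU (with 2 starts), PLAUR, TIMP1 and TIMP3. No window was at hand for MMP1, MMP3, MMP9 or PLAT. The 250 bases before each start were searched on both strands. Capitals mark AP-1 letters (TGAGTCA) in PLAUR and GC boxes (GGGCGG, read by SP1) in the other 3:
PLAUR, chr19:43670170-43670419, minus strand: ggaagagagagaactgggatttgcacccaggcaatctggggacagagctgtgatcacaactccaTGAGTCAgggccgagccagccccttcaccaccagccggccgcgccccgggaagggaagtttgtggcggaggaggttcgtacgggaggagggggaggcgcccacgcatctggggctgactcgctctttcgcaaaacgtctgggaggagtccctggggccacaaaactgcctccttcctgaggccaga
MMP14, chr14:22836335-22836584, plus strand: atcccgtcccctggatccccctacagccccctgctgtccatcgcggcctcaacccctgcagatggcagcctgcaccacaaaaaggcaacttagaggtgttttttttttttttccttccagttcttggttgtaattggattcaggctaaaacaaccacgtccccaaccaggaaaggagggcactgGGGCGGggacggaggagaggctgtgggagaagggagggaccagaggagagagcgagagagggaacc
TIMP1, chrX:47582186-47582435, plus strand: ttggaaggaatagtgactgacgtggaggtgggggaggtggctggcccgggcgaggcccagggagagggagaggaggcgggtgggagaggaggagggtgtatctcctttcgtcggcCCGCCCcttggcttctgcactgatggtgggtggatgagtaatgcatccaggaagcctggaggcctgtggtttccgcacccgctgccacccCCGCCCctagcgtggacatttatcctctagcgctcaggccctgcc
TIMP3, chr22:32801455-32801704, plus strand: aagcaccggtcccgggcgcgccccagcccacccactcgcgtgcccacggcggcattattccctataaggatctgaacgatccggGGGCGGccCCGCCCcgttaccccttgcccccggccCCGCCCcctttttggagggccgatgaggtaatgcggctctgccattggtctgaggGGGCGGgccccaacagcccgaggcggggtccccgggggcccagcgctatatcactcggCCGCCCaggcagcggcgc

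The AP-1 letters in PLAUR began at -186 and ended at -180 from its start. This motif was in 4.2% of 35116 promoter windows of the same length. GC boxes numbered 1 in MMP14, 2 in TIMP1, 5 in TIMP3 and 3 in the second PLAU window, and were in 42.6% of all windows. No match overlapped another. TATAAA (10.7% of all windows), the full palindromic estrogen response element (0.0399%) and an NF-kB motif (5.21%) had no match in these windows, which says nothing about binding elsewhere.

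The carrier BSA was set against control to measure the albumin without the hormone. PLAU, MMP9 and PLAUR had the largest differences of the 9 genes, all upward, and none passed the test over all genes. Limma's additive fit called 0 of the 9 genes, with 3 at an unadjusted p under 0.05. Over all genes 0.354% were called and 16.1% had such an unadjusted p. The median of all genes was 0.19 in the BSA array minus the second control and 0.17 in the fit. There was 1 BSA array, so its own spread was not measured.

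PLAU stood at 0.53 in the BSA array and at -0.37 in the second control, within the set of 8, a difference of 0.89. The next highest PLAU value of that set was 0.06, in the ethanol array. Its fitted difference was 0.87 ± 0.14 (95% interval 0.53 to 1.20, limma adjusted p = 0.082, and 0.071 to 0.809 over 15 alternatives). Without a term for the set it was 0.37.

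Of the 2 probe sets of PLAU, 205479_s_at passed. It was at 0.85 in the BSA array, -0.44 in the second control and between -0.52 and 0.03 in the other 6 arrays of its set, so BSA stood alone. In the fit of single probe sets it rose by 1.24 ± 0.17 (limma adjusted p = 0.0293), where 0.516% of all probe sets were called. The call held with arrays centred on their medians (adjusted p = 0.0470) and without the G15 array (0.0199) or the E2-BSA+G15 array (0.0187). It was lost without the first control (adjusted p = 0.0555), the second control (0.511), the first E2-BSA (0.0552), the second E2-BSA (0.221), the ICI (0.114) or the E2-BSA+ICI array (0.116). Within the set of 8 alone the adjusted p was 0.0548, and without a set term 0.645. The other probe set, 211668_s_at, differed by 0.49 ± 0.17 (limma adjusted p = 0.345).

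**Figure D3:**
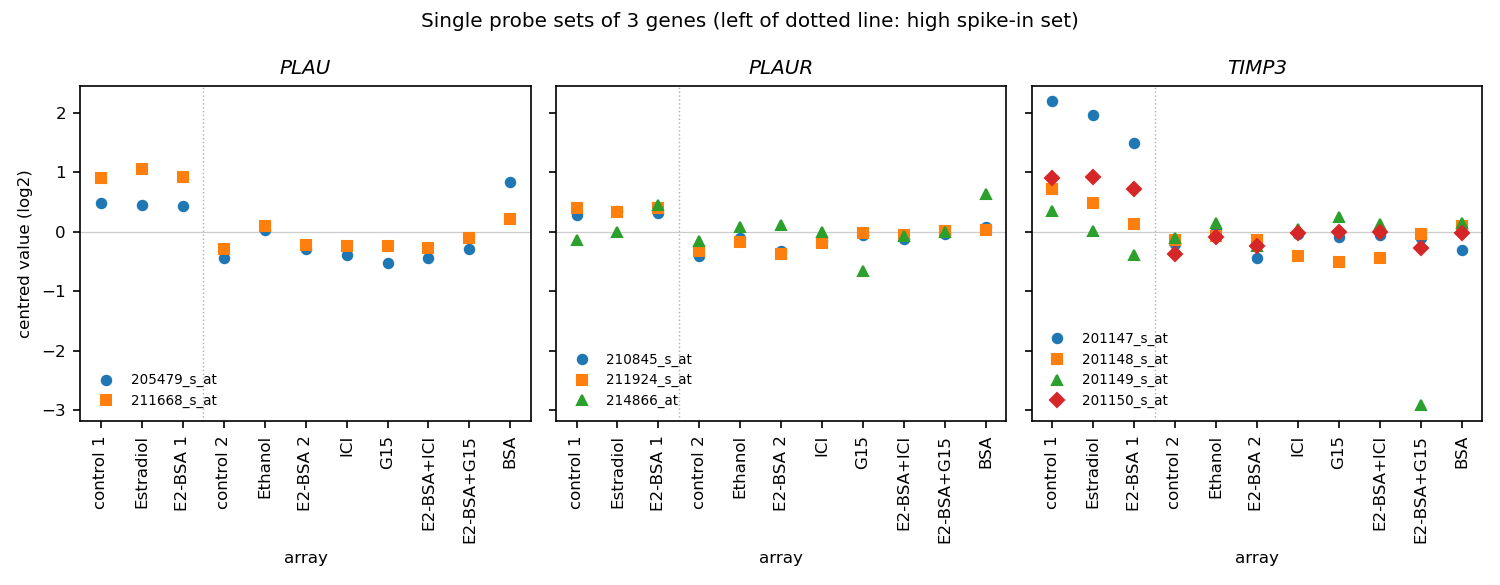
Centred log2 values (y axis) of the single probe sets of PLAU, PLAUR and TIMP3 on the 11 arrays (x axis), with the high spike-in set to the left of the dotted line. The BSA array stands out for 205479_s_at of PLAU (0.85) and 214866_at of PLAUR (0.64), and the E2-BSA+G15 array for 201149_s_at of TIMP3 (-2.92).

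MMP9 was at 0.64 in the BSA array and -0.11 in the second control. The BSA array was the highest of all 11 for this gelatinase gene, the next being E2-BSA+ICI at 0.33. The fitted difference was 0.76 ± 0.14 (limma adjusted p = 0.132), and it ranged from 0.64 to 0.78 over 15 alternatives. PLAUR was at 0.25 against -0.30, with a fitted difference of 0.57 ± 0.13 (limma adjusted p = 0.212). Its 3 probe sets differed by 0.47, 0.39 and 0.84, none passing.

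The remaining genes moved less. In BSA minus the second control MMP3 was at 0.42, MMP14 at 0.35, TIMP1 at 0.32, TIMP3 at 0.18, PLAT at 0.0009 and MMP1 at -0.16. Only MMP3, MMP14 and TIMP1 of these 6 were above the median gene by more than 0.1. No gene of the 9 differed by more than 1 here, as did 0.475% of all genes. The second control was the lowest array of its set for MMP9, MMP14, PLAUR and TIMP1, so every other array of that set was higher than it for these genes.

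Set against its own carrier, E2-BSA had its largest differences in PLAU, MMP9 and PLAUR again, with the BSA array shared between both comparisons. PLAU was at -0.81 ± 0.14 (limma adjusted p = 0.111), MMP9 at -0.64 ± 0.14 (adjusted p = 0.190) and PLAUR at -0.43 ± 0.13 (adjusted p = 0.221). None of the 9 genes passed in limma, 3 had an unadjusted p under 0.05, and 0.308% of all genes were called (0.207% higher, 0.101% lower). The median of all genes was -0.19. The probe set 205479_s_at of PLAU was called (-1.17 ± 0.17, limma adjusted p = 0.0425, where 0.458% of all probe sets were). That call was lost with arrays centred on their medians (adjusted p = 0.0699), within the set of 8 (0.0822), without a set term (0.591), and without the first control (0.0801), second control (0.337), first E2-BSA (0.0807), second E2-BSA (0.571), ICI (0.167) or E2-BSA+ICI array (0.166).

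E2-BSA itself was compared with matched arrays without it in 4 pairs: both first arrays, both second arrays, with ICI on either side, and with G15 on either side. These pairs share no array. No gene of the 9 passed in limma, 1 had an unadjusted p under 0.05 (TIMP3), 0% of all genes were called and 4.69% had such an unadjusted p. Fitted differences ran from -0.34 to 0.14, with a median of 0.03 for the 9 genes and -0.02 for all.

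PLAUR was higher with E2-BSA in all 4 pairs, by 0.20, 0.10, 0.03 and 0.24. It was the only gene of the 9 with 1 sign throughout, as 13.4% of all genes were. The fitted difference was 0.14 ± 0.07 (limma adjusted p = 0.903, 95% interval -0.03 to 0.31), and 0.36 with probe sets ending in _s_at left out, which leaves 214866_at. By probe set PLAUR did not keep 1 sign: 214866_at differed by 0.60, 0.27, -0.07 and 0.65, and 211924_s_at by -0.01, -0.06, 0.13 and 0.03. The remaining one, 210845_s_at, was higher in all 4 pairs by 0.03 to 0.09. MMP9 (0.23, 0.09, 0.17 and -0.02) and MMP14 (0.23, 0.29, 0.05 and -0.09) were higher in 3 of 4.

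The other proteases showed no common sign. MMP1 differed by 0.30, -0.28, -0.0068 and 0.11, and MMP3 by -0.15, 0.28, -0.35 and -0.39. PLAU was at -0.02, 0.11, -0.04 and 0.18, with a fitted difference of 0.06 (95% interval -0.13 to 0.25). For TIMP1 the 4 differences were -0.06, 0.20, 0.02 and -0.16, and its interval ran from -0.22 to 0.22. Changes of 1 in the mean difference over backgrounds lay outside the 95% interval of each of the 9 genes.

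PLAT was lowest relative to its control in the first pair. It fell from 1.26 to 0.44 there, a difference of -0.82 between 2 single arrays, and differed by -0.18, 0.07 and -0.04 in the other pairs. A fit with an E2-BSA by set term, added after the data were seen, put the difference between the sets at -0.77 ± 0.19, and it did not pass (limma adjusted p = 0.338). In that test 0 of the 9 genes passed and 1 had an unadjusted p under 0.05, where 0% and 9.44% of all genes did.

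TIMP3 was at -0.55, -0.06, 0.02 and -0.75 in the 4 pairs. Its fitted difference of -0.34 ± 0.14 (limma adjusted p = 0.903) came to -0.12 ± 0.11 without 201149_s_at. That probe set was at -2.92 in the E2-BSA+G15 array and between -0.39 and 0.35 in the other 10, while the other 3 probe sets of TIMP3 were at -0.11, -0.04 and -0.26 in that array. The E2-BSA+G15 array held 218 probe sets below -2, against 0 to 42 in the other 7 of its set. Of these, 186 belonged to genes with several probe sets, whose other probe sets had a median of -0.11. The ribosomal RNA control probe sets averaged -1.65 in that array and between -0.28 and 0.35 in the others. The part of either in the TIMP3 value was not tested.

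Free estradiol was compared with the first control, in the high set. That control was untreated, so the comparison does not part the hormone from its ethanol vehicle. Differences of the 9 genes ran from -0.25 (PLAT) to 0.07 (MMP14), and 4 of 9 were higher, with a median of -0.17 against -0.0085 for all genes. MMP1 was at 0.03, MMP3 at -0.24, MMP9 at -0.18, PLAU at 0.06, PLAUR at 0.04, TIMP1 at -0.17 and TIMP3 at -0.20. No gene differed by more than 1, as did 0.223% of all genes. Limma's fit called 0 of the 9, with 0 at an unadjusted p under 0.05, where 0% and 7.06% of all genes were.

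The vehicle ethanol, with 1 array, was compared with the second control. PLAU was at 0.06 against -0.37, MMP9 at 0.25 against -0.11, and TIMP1 at 0.0024 against -0.33. The differences of 0.43, 0.36 and 0.33 were the 3 largest, and MMP1, at -0.27, was the one negative value of the 9. The second control was the lowest array of its set for MMP9 and TIMP1 and the highest for MMP1. With G15 the TIMP1 difference from it was also 0.33. The median was 0.25 for these genes and 0.05 for all genes. No gene differed by more than 1, as did 0.298% of all genes (0.258% higher, 0.0405% lower). Limma called 0 of the 9 genes (0.086% of all), and 2, PLAU (0.40 ± 0.14, adjusted p = 0.729) and MMP9 (0.37 ± 0.14, adjusted p = 0.773), had an unadjusted p under 0.05, as did 6.35% of all. Without a set term the PLAU value was -0.09.

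Estradiol against its vehicle crosses the spike-in sets and rests on the set term. In that fit 0 of the 9 passed, 0.0101% of all genes did, and MMP9 (-0.60 ± 0.20, limma adjusted p = 0.524) alone had an unadjusted p under 0.05, with 8.31% of all genes.

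**Figure D4:**
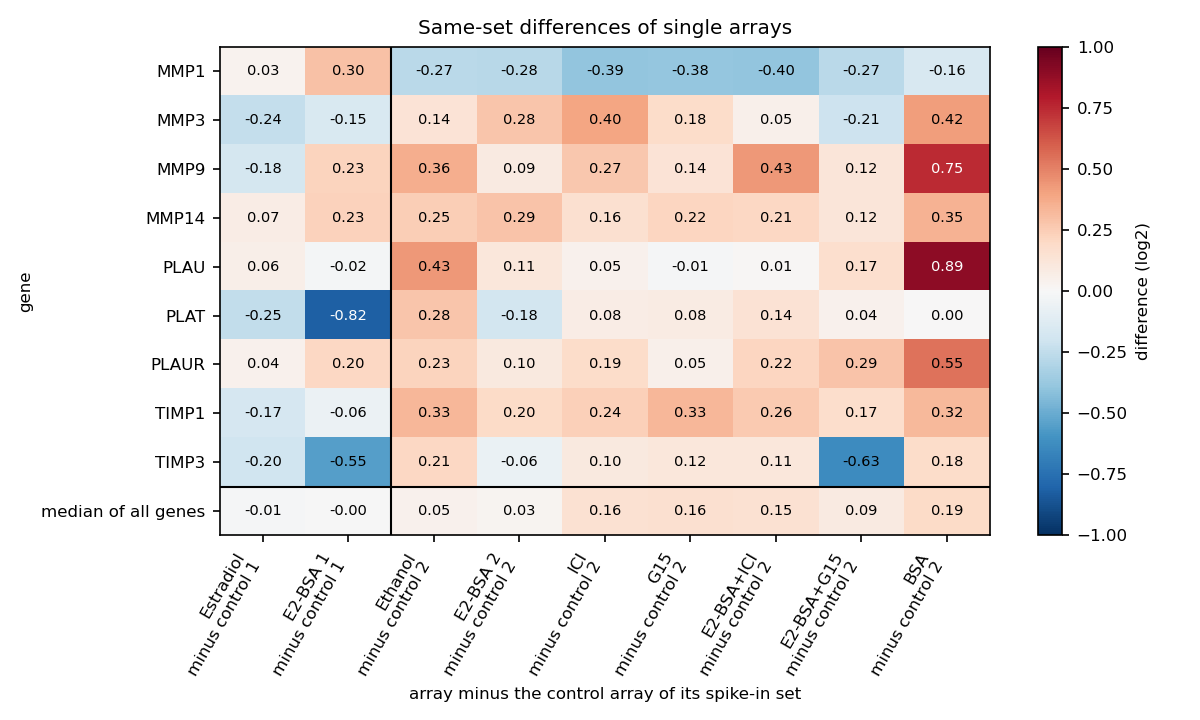
Log2 difference of each treated array (columns) from the control array of its own spike-in set, for the 9 genes and, in the last row, the median of all genes. The 2 columns left of the vertical line belong to the high set. The BSA column holds the largest positive values (PLAU 0.89, MMP9 0.75, PLAUR 0.55), and the lowest values are PLAT in the first E2-BSA array (-0.82) and TIMP3 in E2-BSA+G15 (-0.63).

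No gene of the 9 passed for either antagonist. For ICI present against absent limma called 0 of the 9 (0% of all genes), and MMP9 alone had an unadjusted p under 0.05 (0.30 ± 0.11, adjusted p = 0.286), as did 16.3% of all genes. For G15 it called 0 (0% of all), with 0 at that unadjusted level against 10.3% of all. The median of all genes was 0.14 for ICI and 0.10 for G15, and that of the 9 genes 0.14 and 0.03. The differences from the second control share that array, in which MMP1 was the highest of the 8 (0.39), so MMP1 was negative in all 7 of them (-0.40 to -0.16). The second control was also the lowest of the 8 for MMP9 (-0.11), MMP14 (-0.41), PLAUR (-0.30) and TIMP1 (-0.33), so these genes were positive in all 7.

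E2-BSA differences with an antagonist were set against those without it, from single arrays within the set of 8. For MMP3 the difference was 0.28 without an antagonist, -0.35 with ICI and -0.39 with G15. TIMP3 was at -0.06 without, 0.02 with ICI and -0.75 with G15, the last with the low probe set included. In PLAU the values were 0.11, -0.04 and 0.18. MMP14 had 0.29 without an antagonist, 0.05 with ICI and -0.09 with G15. Its probe sets disagreed in sign with G15: 202827_s_at was at 0.45 and the remaining ones at -0.32, -0.25 and -0.24. No gene of the 9 changed by more than 1 between these backgrounds, as did 0.0759% of all genes for ICI and 1.24% for G15. A limma fit of group means with the set term over all 11 arrays was added after the data were seen, with 1 residual degree of freedom. It tested such changes with the control and E2-BSA arrays of both sets as the side without an antagonist. It called 0 of the 9 genes for ICI and 0 for G15 (0% and 0.0101% of all genes), and 0 had an unadjusted p under 0.05, against 2.95% and 10.3% of all. In that fit the MMP3 value was -0.41 ± 0.24 for ICI and -0.45 ± 0.24 for G15 (limma adjusted p = 0.9996 and 0.568).

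Other genes of protease biology were described by their counts. Of 18 other matrix metalloproteinases, 0 passed in any treatment comparison, where at most 0.354% of all genes did. Between the spike-in sets 0 passed, against 24.1% of all genes. There 1 had an unadjusted p under 0.05 (37.1% of all genes), and the median was 0.07. In the BSA comparison the values with the largest size were MMP26 at 0.59 ± 0.24, MMP7 at 0.59 ± 0.15 and the stromelysin gene MMP10 at 0.53 ± 0.18 (limma adjusted p = 0.303, 0.223 and 0.262). Among 4 other metalloproteinase inhibitors, 3 were higher in the high set, by up to 1.21, and 1 passed, against the same 24.1% of all genes. TIMP2 passed, at 0.41 ± 0.10 (limma adjusted p = 0.0265), while the gene with the largest difference did not.

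Of 16 genes listed with the plasminogen system, 2 passed as higher and 1 as lower in the high set, where 24.1% of all genes passed (14.1% higher, 10% lower). The protease inhibitor gene SERPINE2 was higher by 0.36 ± 0.10 (limma adjusted p = 0.0398) and STC1 by 1.38 ± 0.14 (adjusted p = 7.3e-04). STC1 is on that list but encodes stanniocalcin, a secreted glycoprotein of calcium and phosphate handling and no plasminogen system protein. The gene of coagulation factor XII, F12, was lower, at -0.71 ± 0.13 (adjusted p = 0.0057). Of 14 genes for uPAR partners and docking receptors, the formyl peptide receptor FPR1 (0.99) and the integrin subunit ITGB1 (0.86) were higher, and the collagen receptor MRC2 (-0.58) and the MMP inducer BSG (-0.57) were lower (4 passing).

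In other protease families, and against the same 24.1% of all genes, some members passed between the sets. Among 14 ADAM and ADAMTS genes 6 passed as higher and 1 as lower, with the sheddases ADAM10 at 1.46 ± 0.13 (limma adjusted p = 4.6e-04) and ADAM9 at 1.08 ± 0.12 (adjusted p = 1.0e-03). Among 22 cathepsin and membrane protease genes 7 passed as higher and 0 as lower, with the lysosomal protease CTSL at 1.45 ± 0.11 (adjusted p = 3.8e-04) and its inhibitor CST3 at 0.85 ± 0.13 (adjusted p = 0.0034). No gene of these 6 lists passed against control under E2-BSA, BSA, ethanol or estradiol, or with ICI or G15. Some transcription factor genes of the AP-1, ETS and NF-kB families did. In BSA 3 of 16 passed as higher, RELB by 2.00 ± 0.19, JUNB by 1.40 ± 0.19 and REL by 0.96 ± 0.14 (limma adjusted p = 0.0058, 0.0305 and 0.0494), where 0.354% of all genes were called. Of 15 alternatives RELB passed in 12, JUNB in 9 and REL in 3. In ethanol 3 of 16 passed as higher, FOS, FOSB and JUNB, by 3.04 ± 0.25, 1.80 ± 0.17 and 1.76 ± 0.19 (limma adjusted p = 0.0103, 0.0132 and 0.0251), where 0.086% of all genes were called. Each of these calls in BSA and in ethanol, from 1 array each, was lost without a set term, without the second control array and without the second E2-BSA array. In E2-BSA against BSA, which shares the BSA array, 2 of 16 passed as lower, where 0.101% of all genes did. The part of these transcription factor genes in the protease values was not tested.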

How the data were processed

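The deposited table holds 1 value per probe set and array. Per the values of the deposited file these are log2 values centred per probe set. The base was taken as 2, and the authors' summarisation and normalization are not given in the sources used here. Symbols came from the platform annotation (41091 with 1 symbol, 1801 with several, 11721 with none, 62 controls), and a gene's probe sets were averaged. Groups came from sample titles, and the spike-in sets from the largest gap (1.30) in the mean of the poly-A controls. Limma 3.58.1 (R 4.3.3) fitted terms for each agent and the set, with a trend in the prior variance, Benjamini-Hochberg adjustment over 19775 genes (41091 probe sets) and a threshold of 0.05. It was tested on simulated data. Single arrays were compared without a test, at a log2 difference of 1. Promoter letters came from RefSeq (GRCh38.p14).

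The genes, lists and comparisons were chosen with earlier results of these data known. All 9 genes were named, with genes of other lists taken from those that passed or, failing that, from the 3 of largest size. Genes of like pattern were to be named for members past 1 in the set of 8, and there were 0. Alternatives were the set term, group means, the 8 arrays alone, 2 scalings, probe-set choices, the variance trend and single arrays left out. Each control, E2-BSA, ICI, G15, E2-BSA+ICI and E2-BSA+G15 array was left out in turn. The BSA, ethanol and estradiol arrays were not.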

Additional observations from a re-analysis of the deposited data

How the results depend on the processing

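The fits left 3 residual degrees of freedom, and BSA, ethanol and estradiol had 1 array each, so a gene that missed the threshold is not shown to be unchanged. In 8 treatment comparisons 0 of the 9 genes passed under each alternative fitted to gene averages, and 1 gene (PLAU, by 205479_s_at) passed for BSA against control and for E2-BSA against BSA when probe sets were fitted singly. Between the spike-in sets 7 genes passed, and 3 to 7 with 1 array left out, the lowest without the second control (PLAU, TIMP1 and MMP3), and 6 with _x_at and _s_at probe sets left out. No member difference of single arrays passed 1 under any scaling. Of 1188 alternative values of the 9 genes 118 had the other sign, 0 of them passing in either fit. Among the values named, MMP9 between the sets became -0.012 with quantile normalization and ranged from -0.041 (without the first E2-BSA array) to 0.10 with 1 array left out. PLAU in ethanol became -0.092 without a set term. TIMP3 with G15 went from -0.22 to 0.088 without 201149_s_at. Where an alternative drops a probe set or an array, it shows only that the value depends on it. The causes were not tested.

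Over all genes, BSA against control had 70 calls (5 without a set term, 4 to 76 with 1 array left out, lowest without the second control), E2-BSA against BSA 61 (0, and 0 to 75), and ethanol 17 (0, 0 to 19, and 36 with quantile normalization). Estradiol against ethanol had 2 (0 to 3). ICI had 0 (3 with group means, up to 22) and G15 0 (up to 179, without the G15 array). The set term had 4772 (1332, without the second E2-BSA array, to 5848). Centring arrays moved the median gene for BSA from 0.17 to 0.05 and turned 25 higher and 45 lower calls into 15 and 51. For E2-BSA against BSA it turned 41 and 20 into 49 and 9. Quantile normalization turned 17 and 0 in ethanol into 29 and 7. With a replicate block on the 4 control and E2-BSA arrays, 0 of the 9 genes passed for E2-BSA against control. Same-numbered control and E2-BSA arrays deviated together (correlation 0.81 over genes). Both first arrays belong to the high spike-in set and both second arrays to the other, so array number and set cannot be told apart here. Nothing in the labels pairs the arrays.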
